A study of Mus musculus with 6 samples.

Results

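Transcripts of 45 mitosis and spindle genes were followed in myeloid populations sorted from mouse colon tumours. The genes were chosen by name as known components of cell division, not by their values here, although the list was drawn up with earlier results of these data known. All 45 were found among the 35275 genes of the deposited count tables, and all 45 had enough reads to be tested, as 13883 genes did in all. BALB/C mice carried subcutaneous tumours of CT26, a mouse colon carcinoma line, and the tumours were digested and sorted when they reached 1800 mm3. From each of 2 tumour-bearing mice 3 populations were sorted: Ly6G-low cells that bound the T1 aptamer, Ly6G-high cells that did not bind it, and Ly6G-high cells that did. An aptamer is a folded oligonucleotide that binds a target, and what T1 binds is not given in the labels used here. Ly6G is the surface marker by which mouse neutrophils are usually gated. All 3 populations thus share the tumour model, the strain and the animals, and each has 2 libraries, 1 per mouse. The purity of the sorts and the other markers of the gates are not given, and p-values measure the spread between these 2 animals only.

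Cells build up most of these transcripts in G2 phase and destroy their products as they leave mitosis, so that most of this RNA is found in dividing cells. Cyclin-dependent kinase 1 starts mitosis with its B-type cyclins, kinetochores and motor proteins align the chromosomes, the spindle checkpoint holds back the anaphase-promoting complex until every chromosome is attached, and a ring between the daughter nuclei then splits the cell. Mature neutrophils do not divide, whereas their bone marrow precursors and tumour cells do. In bulk RNA, fewer dividing cells and less of the transcripts per cell cannot be told apart, and this holds for every result below.

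Libraries held between 23595976 and 28045025 counts, and the 45 genes took between 0.0983% and 0.472% of them, so that all members lay far above the 3 counts (0.107 to 0.127 CPM) that a count of 0 allows. Ly6g itself followed the gates, with 0.182 and 0.0289 CPM (normalised read counts, relative to library size and scaled by TMM factors for composition) in the Ly6G-low libraries of mouse 1 and mouse 2, 32.8 and 30.2 in the T1-non-binding, and 10.1 and 9.39 in the T1-binding Ly6G-high libraries. The labels call the Ly6G-low cells myeloid, but a list of 10 pan-leukocyte genes, among them Ptprc and Itgam, was lower there for 10 of 10 genes against either Ly6G-high population. Of all genes 24.3% were lower than in T1-binding and 23.8% than in T1-non-binding cells. The summed level of the pan-leukocyte list was 1594 and 2344 CPM in Ly6G-low cells, 22432 and 12699 in T1-non-binding and 16322 and 11930 in T1-binding cells. Marker sums of fibroblasts (1464 and 1196 CPM against 428 to 824 in the Ly6G-high libraries) and of epithelium and CT26 (236 and 218 against 108 to 150) were highest in the Ly6G-low libraries. Of the fibroblast list 3 of 10 genes were higher against each Ly6G-high population. Among the 6 tested epithelial genes Krt18 and Krt20 were higher against each, and Cdh1 was lower against T1-binding cells. The shares of all genes that were higher were 18.8% against T1-binding and 16.1% against T1-non-binding cells. None of the fibroblast genes was at 0 in any group, whereas Cldn4 was at 0 in all 4 Ly6G-high libraries and Cldn7 in the T1-non-binding ones. Neutrophil markers summed to 405 and 223 CPM in Ly6G-low cells against 11691 to 47927 in the Ly6G-high libraries, monocyte and macrophage markers to 1120 and 2193 against 3368 to 7591, and T and NK cell markers to at most 61.7 in any library. The part of these other cells in the results on mitotic genes was not tested.

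Levels of the mitosis and spindle genes in Ly6G-low cells lay above those in either Ly6G-high population in both mice for all 45 members, and most of these differences passed the test. Their summed level was 3383 and 3237 CPM in the Ly6G-low libraries of mouse 1 and mouse 2, 1506 and 2016 in T1-non-binding, and 1235 and 1725 in T1-binding Ly6G-high libraries. Both Ly6G-low libraries thus lay above all 4 Ly6G-high libraries, and the latter 2 populations overlapped. The mean of the Ly6G-low libraries was 2.24 times that of T1-binding and 1.88 times that of T1-non-binding cells. With library totals in place of TMM factors these ratios were 3.30 and 3.25, a scaling that also moved the median of all genes by 0.58 and 0.83 on the log2 scale. In the Ly6G-high populations mouse 2 was above mouse 1, by 1.34 times in T1-non-binding and 1.40 times in T1-binding cells, whereas in Ly6G-low cells mouse 2 stood at 0.957 of mouse 1.

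**Figure D1:**
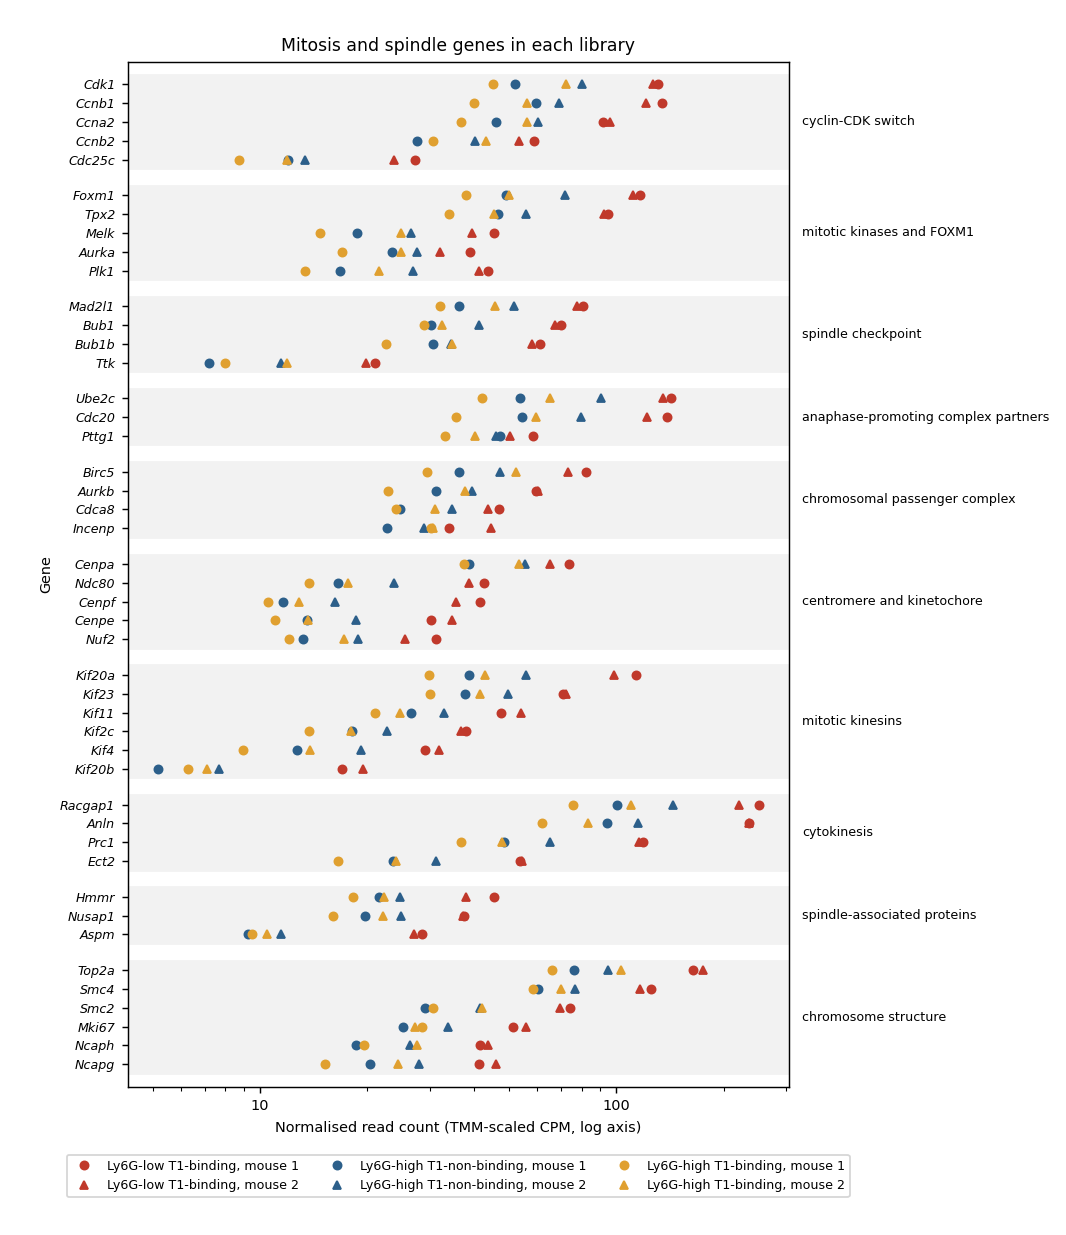
Normalised read count (TMM-scaled CPM, log axis) of each of the 45 genes, grouped by role, in the 6 libraries. Colour gives the population, circles stand for mouse 1 and triangles for mouse 2. The red points of the Ly6G-low libraries lie to the right of the other 4 points in every row.

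Promoters of cell cycle genes are known for a cell cycle genes homology region, in which the DREAM and MYBL2 complexes bind, and for CCAAT boxes, bound by NF-Y. Promoter sequences from 250 bases before to 50 after the start site (RefSeq, GRCm38.p6) were matched by symbol for 37 of the 45 genes, with 39 promoters. Ect2 and Prc1 each have 2 promoters whose sequences overlap, so that the same matches count in both. The homology region was searched as TTTGAA and the NF-Y box as CCAAT, each on both strands. TTTGAA was found in 29 of 39 promoters (74.4%) against 17.9% of all 32851 promoters of the table, and CCAAT in 28 (71.8%) against 37.4%. Both stood in 25 promoters (64.1%) against 6.95% of all promoters, and at least 2 CCAAT boxes in 18 (46.2%) against 11.7%. Counting the variant TTCGAA as well, 30 promoters (76.9%) held the homology region, against 19.2% of all. Of the promoters with TTTGAA, 93.1% of the members' and 27.6% of all had it within 50 bases of the start site. These are matches of letters, not measured binding. Ccna2, Cdc25c, Aurkb, Incenp, Kif20a, Tpx2, Foxm1 and Smc4 were not matched.

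The promoters of 6 members are printed from 250 bases before to 30 after the start site, 5′ to 3′ on the gene's strand. Every TTTGAA or CCAAT match is in capitals, read on the other strand as TTCAAA or ATTGG. Cdk1 (chr10:69352883-69353162, minus strand) is the kinase that starts mitosis, and Ccnb2 (chr9:70421525-70421804, minus) is a B-type cyclin. Cdc20 (chr4:118437314-118437593, minus) and Ube2c (chr2:164769679-164769958, plus) act to end mitosis. Cenpf (chr1:189688057-189688336, minus) and Aspm (chr1:139454523-139454802, plus) were among the members that differed most.
Cdk1: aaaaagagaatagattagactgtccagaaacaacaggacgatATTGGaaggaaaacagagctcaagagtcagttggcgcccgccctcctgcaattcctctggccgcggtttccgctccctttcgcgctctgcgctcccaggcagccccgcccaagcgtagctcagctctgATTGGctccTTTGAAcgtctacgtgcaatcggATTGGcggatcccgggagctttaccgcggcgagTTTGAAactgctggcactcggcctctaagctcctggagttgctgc
Ccnb2: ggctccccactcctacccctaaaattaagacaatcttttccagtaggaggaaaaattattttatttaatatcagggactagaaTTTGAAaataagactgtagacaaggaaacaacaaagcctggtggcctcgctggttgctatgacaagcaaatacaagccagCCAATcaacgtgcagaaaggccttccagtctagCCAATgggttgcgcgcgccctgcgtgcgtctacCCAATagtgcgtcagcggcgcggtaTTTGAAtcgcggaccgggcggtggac
Cdc20: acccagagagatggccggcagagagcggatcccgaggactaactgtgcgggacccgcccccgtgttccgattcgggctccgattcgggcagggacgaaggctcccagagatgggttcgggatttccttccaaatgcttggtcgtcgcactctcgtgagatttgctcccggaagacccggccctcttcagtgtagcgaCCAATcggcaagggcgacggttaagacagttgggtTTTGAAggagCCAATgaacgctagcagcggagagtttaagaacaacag
Ube2c: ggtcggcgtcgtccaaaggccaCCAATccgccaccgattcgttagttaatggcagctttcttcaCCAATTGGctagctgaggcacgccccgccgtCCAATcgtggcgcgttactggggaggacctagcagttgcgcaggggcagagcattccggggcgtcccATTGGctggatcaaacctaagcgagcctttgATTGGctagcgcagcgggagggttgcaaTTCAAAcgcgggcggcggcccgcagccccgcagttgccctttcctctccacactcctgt
Cenpf: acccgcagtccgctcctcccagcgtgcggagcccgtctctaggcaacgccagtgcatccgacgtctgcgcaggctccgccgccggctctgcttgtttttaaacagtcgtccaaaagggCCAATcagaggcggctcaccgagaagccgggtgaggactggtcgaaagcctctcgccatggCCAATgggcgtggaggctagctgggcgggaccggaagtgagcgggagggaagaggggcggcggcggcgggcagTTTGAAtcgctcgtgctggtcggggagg
Aspm: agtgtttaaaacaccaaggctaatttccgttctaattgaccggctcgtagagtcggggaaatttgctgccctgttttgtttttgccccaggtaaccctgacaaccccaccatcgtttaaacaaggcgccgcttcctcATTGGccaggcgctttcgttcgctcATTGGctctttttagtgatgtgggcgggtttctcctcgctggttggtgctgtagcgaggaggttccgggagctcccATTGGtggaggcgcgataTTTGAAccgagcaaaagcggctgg
Cdk1 and Ccnb2 each carry 2 homology regions and 3 CCAAT boxes, Cdc20 and Cenpf carry 1 and 2, Aspm 1 and 3, and Ube2c 1 and 6, of which a pair overlaps in one palindrome. The promoter of Ccnb2, which passed the threshold in neither comparison, and that of Cenpf, with the largest difference, thus both hold each element. Not all members with large differences do. Kif20b, with the largest difference from T1-non-binding cells, and Anln each hold 2 homology regions and 0 CCAAT boxes. These are single examples, and a relation between the elements and the size of the difference was not tested.

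**Figure D2:**
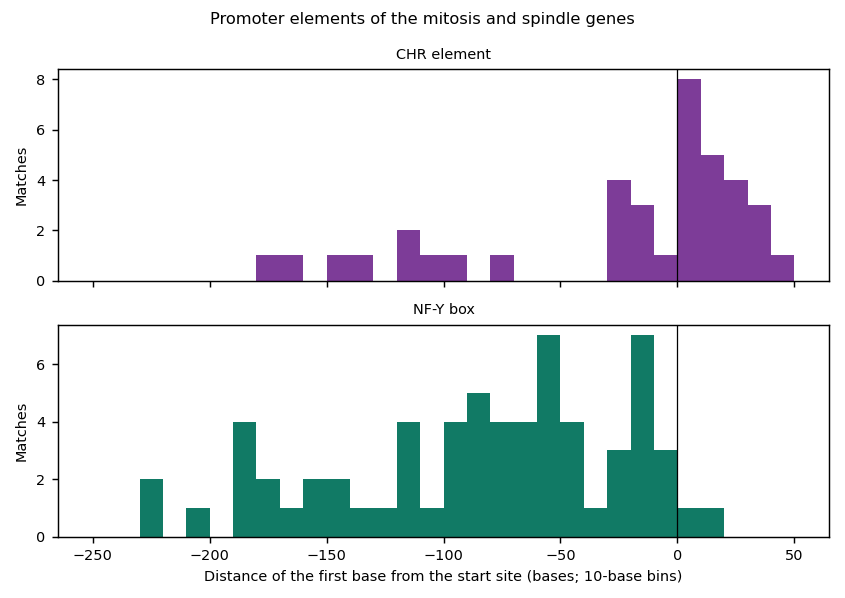
Distance in bases of each match of the cell cycle genes homology region (TTTGAA on either strand, upper panel) and of the NF-Y box (CCAAT on either strand, lower panel) from the start site in the 39 member promoters, counted in bins of 10 bases. Matches of the homology region gather at the start site, and the NF-Y boxes lie mostly before it. Matches of Ect2 and Prc1 are counted in each of their overlapping promoters.

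Against T1-binding Ly6G-high cells, 42 of 45 members were higher in Ly6G-low cells and 0 were lower at an adjusted p below 0.05 (edgeR's quasi-likelihood test on all genes, Benjamini-Hochberg adjustment), where 18.8% of all tested genes were higher and 24.3% lower. The median log2 fold change of the members was 1.14, a 2.20-fold difference, beside 0.03 over all genes. Single members ranged from 0.36 to 1.72 with an SD of 0.30. The median standard error of a member's estimate was 0.23. It includes differences between mice that most members shared, so it does not measure noise in the spread among members. Both Ly6G-low libraries lay above both T1-binding libraries for 45 of 45 members, as for 41.6% of all genes, while 39.6% of all genes lay below. With mouse as a block over 6 libraries 44 members were called, where 21.7% of all genes were. This block fits the same mouse difference in every population, whereas the members' mouse difference in Ly6G-low cells was unlike that in Ly6G-high cells. The median was 1.43 within mouse 1 and 0.92 within mouse 2. In a test against a 2-fold change rather than none, 3 members passed, Anln, Aspm and Cenpf, beside 0.908% of all genes. Leaving out 1 library left 17 members called without the Ly6G-low library of mouse 1, 19 without that of mouse 2 and 17 without the T1-binding library of mouse 1, where 3.52%, 4.73% and 4.06% of all genes were higher. In these fits the lone library of a population is assumed to vary like the others.

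Against T1-non-binding Ly6G-high cells, which were compared with the same Ly6G-low libraries, 38 of 45 members were higher and 0 lower, where 16.1% of all genes were higher and 23.8% lower. The median log2 fold change was 0.91, a 1.88-fold difference, beside 0.09 over all genes, and members ranged from 0.23 to 1.497. For 45 of 45 members both Ly6G-low libraries lay above both T1-non-binding libraries, as for 43.6% of all genes, while 36.6% lay below. With mouse as a block over 6 libraries 42 members were called, where 20.5% of all genes were. Within mouse 1 the median was 1.17 and within mouse 2 it was 0.69. No member passed a test against a 2-fold change, as 0.0144% of all genes did in this direction. With RLE factors in place of TMM 28 members were called, where 11.4% of all genes were higher. Without the Ly6G-low library of mouse 1 or without that of mouse 2, 3 members were called (Aspm, Cenpf and Kif20b), beside 0.815% and 1.2% of all genes, and without the T1-non-binding library of mouse 1, 6 were, beside 2.18%.

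**Figure D3:**
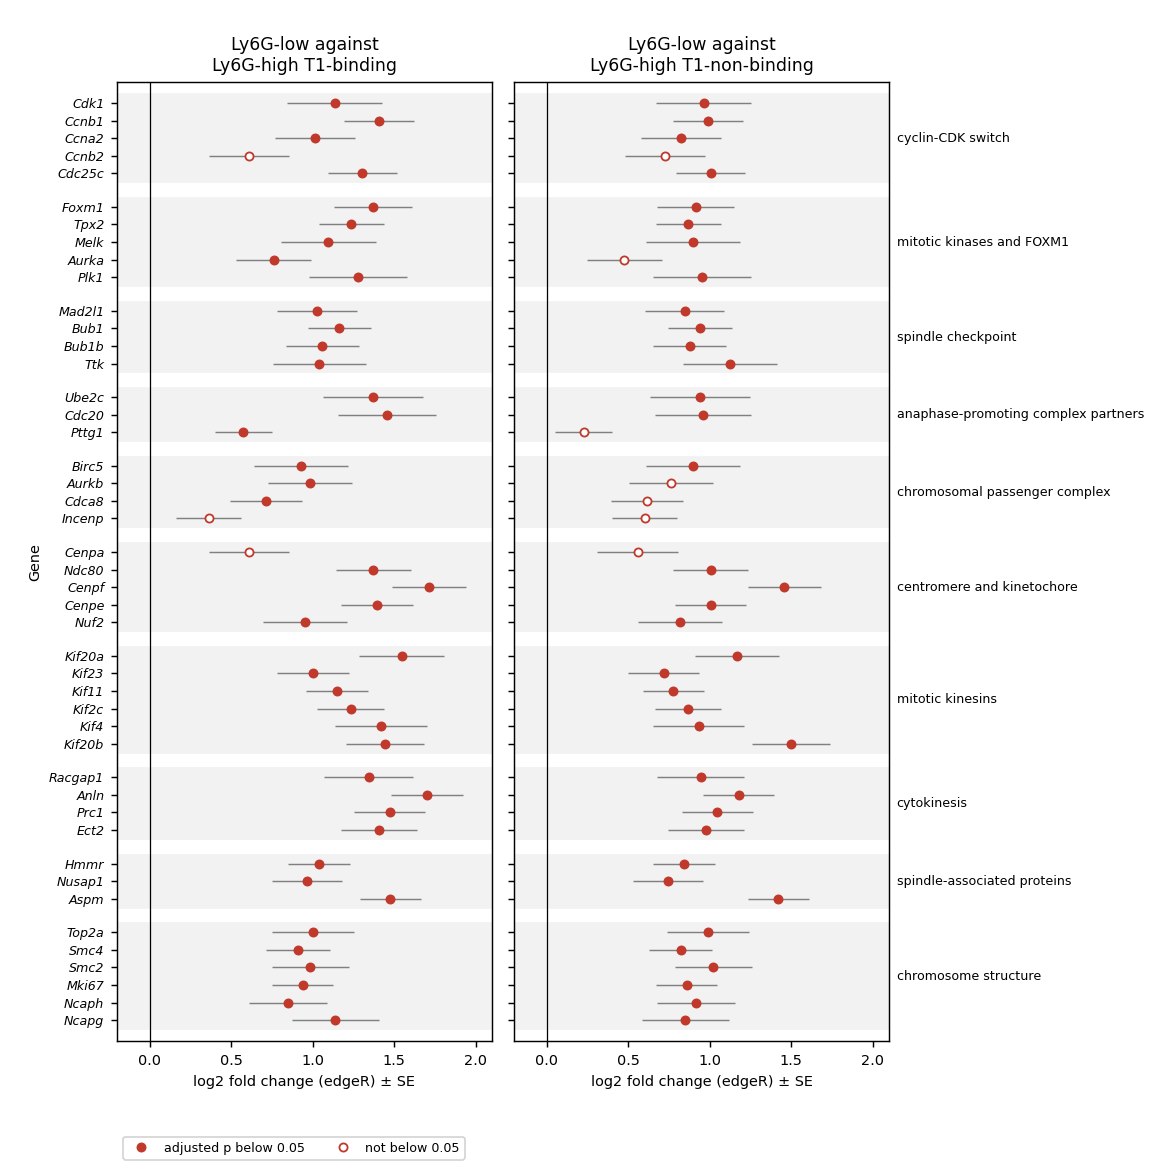
Fitted log2 fold change of each member (edgeR, all 6 libraries, error bars 1 standard error) in Ly6G-low cells against T1-binding (left) and T1-non-binding (right) Ly6G-high cells. Filled points have an adjusted p below 0.05, 42 on the left and 38 on the right, and no point lies below 0.

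The switch into mitosis was represented by 5 genes, of which 4 were higher in Ly6G-low cells in each comparison. Cdk1, the kinase that drives entry into mitosis, was at 131 and 127 CPM in the Ly6G-low libraries of mouse 1 and mouse 2, 52.0 and 80.2 in T1-non-binding and 45.04 and 72.2 in T1-binding cells. Ccnb1, its main cyclin partner, was at 134 and 121 CPM, against 59.5 and 69.3 in T1-non-binding and 39.9 and 56.3 in T1-binding cells. For both genes the Ly6G-low libraries stood clear of all others. Cdk1 was 2.20-fold higher than in T1-binding (log2 1.14 ± 0.29 SE, edgeR adjusted p = 0.0212) and 1.95-fold higher than in T1-non-binding cells (0.96 ± 0.29, adjusted p = 0.0391). Ccnb1 was 2.65-fold (adjusted p = 0.00436) and 1.98-fold higher (adjusted p = 0.0146). Ccnb2, a second B-type cyclin, was at 59.0 and 53.4 CPM, against 27.6 and 40.2 in T1-non-binding and 30.6 and 43.0 in T1-binding cells. Its libraries did not overlap either, but its log2 differences of 0.61 ± 0.25 and 0.72 ± 0.25 missed the threshold (adjusted p = 0.0819 and 0.0537), and passed it with mouse as a block over 6 libraries (0.64, adjusted p = 0.0384, and 0.76, adjusted p = 0.0232) but not with the block on the 4 libraries compared (adjusted p = 0.0529 and 0.052). Ccna2, the cyclin of S and G2 phase, was 2.02-fold and 1.77-fold higher, and Cdc25c, a phosphatase that activates Cdk1, 2.47-fold and 2.01-fold higher.

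Among the mitotic kinases and their regulators, 5 of 5 genes were higher against T1-binding and 4 of 5 against T1-non-binding cells. Foxm1, the transcription factor that turns on many G2 genes, was at 116 and 111 CPM in Ly6G-low, 49.1 and 71.8 in T1-non-binding and 37.9 and 50.04 in T1-binding cells. Tpx2, which activates Aurora A on spindle microtubules, was at 94.8 and 92.4, 46.7 and 55.9, and 34.0 and 45.4 CPM in the same order. In neither gene did a Ly6G-high library reach the Ly6G-low ones, and the fold differences from T1-binding cells were 2.59 (Foxm1, edgeR adjusted p = 0.00619) and 2.36 (Tpx2, adjusted p = 0.00502). Plk1, a kinase of centrosome maturation and mitotic entry, was 2.42-fold and 1.94-fold higher than in T1-binding and T1-non-binding cells, and Melk, a kinase induced in dividing cells, 2.14-fold and 1.86-fold. Aurka, the centrosomal Aurora kinase, was nearer to the Ly6G-high level, at 38.9 and 32.0 CPM against 23.4 and 27.5 in T1-non-binding and 17.1 and 24.8 in T1-binding cells. It was 1.69-fold higher than in T1-binding cells (adjusted p = 0.0351), and its log2 difference of 0.48 ± 0.23 from T1-non-binding cells missed the threshold (adjusted p = 0.13).

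All 4 spindle checkpoint genes were higher in both comparisons. Mad2l1, the inhibitor that sequesters Cdc20, was at 80.6 and 77.5 CPM in Ly6G-low, 36.2 and 51.8 in T1-non-binding and 32.0 and 45.6 in T1-binding cells. Bub1, a checkpoint kinase at kinetochores, was at 69.9 and 67.5, 30.3 and 41.2, and 28.9 and 32.4 CPM. For both the 2 Ly6G-low values lay close together and above the rest. Mad2l1 was 2.04-fold and 1.80-fold higher than in T1-binding and T1-non-binding cells, and Bub1 2.24-fold and 1.92-fold. Bub1b, the BubR1 part of the checkpoint complex, was 2.09-fold and 1.83-fold higher. Ttk, the Mps1 kinase that starts checkpoint signalling, had a low level (21.1 and 19.9 CPM, against 7.19 and 11.5 in T1-non-binding and 7.96 and 11.9 in T1-binding cells) and was 2.06-fold and 2.18-fold higher (edgeR adjusted p = 0.0258 and 0.0242).

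Of the partners of the anaphase-promoting complex, 3 of 3 were higher against T1-binding and 2 of 3 against T1-non-binding cells. Ube2c, its ubiquitin-conjugating enzyme, was at 142 and 135 CPM in Ly6G-low, 53.8 and 90.7 in T1-non-binding and 42.1 and 65.2 in T1-binding cells. Cdc20, its activator in mitosis, was at 139 and 122, 54.4 and 79.4, and 35.4 and 59.5 CPM. For both genes each Ly6G-low library was above every Ly6G-high library, and among the latter those of mouse 1 were lower. Ube2c was 2.59-fold higher than in T1-binding cells (edgeR adjusted p = 0.0136) and 1.92-fold higher than in T1-non-binding cells (adjusted p = 0.0469), and Cdc20 2.75-fold (adjusted p = 0.01) and 1.94-fold (adjusted p = 0.0406). Pttg1, or securin, the inhibitor of separase that the complex destroys at anaphase, had the smallest difference from T1-non-binding cells. It was at 58.5 and 50.5 CPM in Ly6G-low, 47.3 and 45.9 in T1-non-binding and 33.0 and 40.1 in T1-binding cells, a log2 difference of 0.58 ± 0.17 from T1-binding cells (adjusted p = 0.0349) and of 0.23 ± 0.17 from T1-non-binding cells (adjusted p = 0.315). With mouse as a block on the 4 libraries compared, the first of these missed the threshold too (0.57, adjusted p = 0.0643).

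The chromosomal passenger complex, which corrects faulty attachments and marks the site of cleavage, had the smallest ratio of the 10 role groups. Its 4 genes summed to 1.72 times the T1-binding and 1.68 times the T1-non-binding level, against 2.82 and 2.07 times for cytokinesis genes, and 3 of 4 and 1 of 4 members were called higher. Birc5, or survivin, was at 82.2 and 73.1 CPM in Ly6G-low, 36.3 and 47.3 in T1-non-binding and 29.5 and 52.2 in T1-binding cells, 1.90-fold and 1.86-fold higher than in T1-binding and T1-non-binding cells (edgeR adjusted p = 0.0383 and 0.0459). Aurkb, the kinase of the complex, was at 59.4 and 60.4, 31.1 and 39.4, and 22.9 and 37.6 CPM, 1.98-fold higher than in T1-binding cells (adjusted p = 0.0222). Incenp, the scaffold that binds Aurora B, was at 33.9 and 44.4 CPM against 22.8 and 28.9 in T1-non-binding and 30.2 and 30.7 in T1-binding cells. Its Ly6G-low libraries were above the others by little, and its log2 difference of 0.36 ± 0.20 from T1-binding cells was the smallest of all members (adjusted p = 0.178). Against T1-non-binding cells Aurkb (0.76 ± 0.26, adjusted p = 0.052), Incenp (0.60 ± 0.20, adjusted p = 0.0522) and Cdca8, or borealin (0.61 ± 0.22, adjusted p = 0.0621), missed the threshold by little and passed it with mouse as a block over 6 libraries (adjusted p = 0.0178, 0.0293 and 0.0332). With the block on the 4 libraries compared Aurkb passed (adjusted p = 0.0417), and Incenp and Cdca8 did not (adjusted p = 0.135 and 0.111).

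At the centromere and kinetochore, 4 of 5 genes were higher in both comparisons, with Cenpa the exception. Cenpf (chr1:189640606-189688086, mm10), a large protein of the outer kinetochore, was at 41.4 and 35.4 CPM in Ly6G-low, 11.6 and 16.3 in T1-non-binding and 10.5 and 12.8 in T1-binding cells. Ndc80, the microtubule-binding subunit of the kinetochore, was at 42.7 and 38.6, 16.6 and 23.8, and 13.7 and 17.6 CPM. For these genes each Ly6G-low value was well above any Ly6G-high value. Cenpf was 3.28-fold higher than in T1-binding cells, the largest difference among members (log2 1.72 ± 0.23, edgeR adjusted p = 0.00342), and 2.75-fold higher than in T1-non-binding cells (adjusted p = 0.00455). Cenpe, a kinetochore motor, was 2.63-fold and 2.01-fold higher, Ndc80 2.59-fold and 2.00-fold, and Nuf2, its binding partner, 1.94-fold and 1.76-fold. Cenpa, the histone H3 variant that marks centromeres, was at 73.5 and 65.02 CPM in Ly6G-low, 38.6 and 55.4 in T1-non-binding and 37.5 and 53.3 in T1-binding cells. Its log2 differences of 0.61 ± 0.25 and 0.56 ± 0.25 missed the threshold (adjusted p = 0.0837 and 0.108), and the first passed it with mouse as a block over 6 libraries (0.64, adjusted p = 0.0408) but not with the block on the 4 libraries compared (adjusted p = 0.0535).

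All 6 mitotic kinesins were higher in both comparisons. Kif20a, a motor of the central spindle, was at 114 and 98.5 CPM in Ly6G-low, 38.6 and 55.9 in T1-non-binding and 29.7 and 42.9 in T1-binding cells. Kif23, the motor subunit of centralspindlin, was at 71.0 and 72.3, 37.6 and 49.6, and 29.998 and 41.6 CPM. Kif20b, a related motor of late cytokinesis, was the least abundant by read count, at 17.0 and 19.5, 5.18 and 7.66, and 6.28 and 7.13 CPM. In each the Ly6G-low libraries stood apart from the Ly6G-high ones. Kif20a was 2.92-fold higher than in T1-binding and 2.24-fold higher than in T1-non-binding cells (edgeR adjusted p = 0.00554 and 0.0153). Kif20b had the largest difference of any member from T1-non-binding cells, 2.82-fold (log2 1.497 ± 0.24, adjusted p = 0.00512). Kif11, which pushes the spindle poles apart, was 2.22-fold and 1.71-fold higher, Kif2c, which shortens microtubules at centromeres, 2.35-fold and 1.82-fold, and Kif4, a chromosome-bound motor, 2.68-fold and 1.91-fold.

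Cytokinesis genes had the highest read counts and the largest ratios, and 4 of 4 were higher in both comparisons. Racgap1 (chr15:99620496-99651656), the partner of Kif23 in centralspindlin, was at 251 and 221 CPM in Ly6G-low, 100.7 and 144 in T1-non-binding and 75.7 and 110.2 in T1-binding cells. Anln (chr9:22332012-22389188), or anillin, the scaffold of the cleavage ring, was at 236 and 236, 94.0 and 115, and 62.0 and 83.3 CPM. The 3 populations did not overlap for Anln. It was 3.25-fold higher in Ly6G-low than in T1-binding cells (log2 1.70 ± 0.22, edgeR adjusted p = 0.00337) and 2.26-fold higher than in T1-non-binding cells (1.18 ± 0.22, adjusted p = 0.00838). Racgap1 was 2.54-fold and 1.92-fold higher, Prc1, which bundles the microtubules of the midzone, 2.78-fold and 2.06-fold, and Ect2, the exchange factor that activates RhoA at the cleavage site, 2.66-fold and 1.97-fold.

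Spindle-associated and chromosome structure genes, 9 in all, were all higher in both comparisons. Hmmr, a spindle pole protein, was at 45.5 and 37.8 CPM in Ly6G-low, 21.6 and 24.8 in T1-non-binding and 18.3 and 22.3 in T1-binding cells. Nusap1, a microtubule-bundling protein, was at 37.5 and 37.2, 19.7 and 24.9, and 16.0 and 22.2 CPM. Aspm, which focuses the spindle poles, was at 28.6 and 27.0, 9.26 and 11.4, and 9.51 and 10.5 CPM. The Ly6G-high libraries lay close together for Aspm, and it was 2.78-fold and 2.68-fold higher in Ly6G-low cells than in T1-binding and T1-non-binding cells (edgeR adjusted p = 0.00324 and 0.00249). Top2a, the topoisomerase that untangles sister chromatids, was at 165 and 175 CPM, against 76.1 and 94.8 in T1-non-binding and 66.0 and 103 in T1-binding cells, 2.00-fold and 1.99-fold differences. Smc4, the core ATPase of condensin, was at 125 and 116, 60.2 and 76.7, and 58.4 and 70.2 CPM. Mki67, the proliferation antigen Ki-67 that coats mitotic chromosomes, was at 51.3 and 55.7, 25.2 and 33.6, and 28.5 and 27.2 CPM. Both were called, Smc4 at 1.88-fold and 1.77-fold and Mki67 at 1.92-fold and 1.81-fold. The other condensin subunits Smc2, Ncapg and Ncaph were 1.98-fold, 2.20-fold and 1.80-fold higher than in T1-binding cells, and 2.03-fold, 1.80-fold and 1.88-fold higher than in T1-non-binding cells.

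Levels of different genes can be set side by side only per length, on the deposited FPKM scale, which is relative to the library total and was used here for no comparison between populations. In the Ly6G-low libraries of mouse 1 and mouse 2 the most abundant members were Cdc20 (108 and 94.3 FPKM), Ube2c (90.7 and 85.5), Racgap1 (78.3 and 68.3), Cenpa (75.8 and 66.6) and Ccnb1 (75.3 and 67.5). The values of the mice did not overlap between Cdc20 and Ube2c or between Ube2c and Racgap1, whereas Racgap1, Cenpa and Ccnb1 overlapped. The least abundant were Aspm (4.04 and 3.79 FPKM), Kif20b (4.27 and 4.86), Cenpf (5.18 and 4.41), Cenpe (5.40 and 6.13) and Mki67 (7.10 and 7.66). In these files the 4 longest members are Cenpf, Mki67, Aspm and Cenpe, at 11137, 10075, 9866 and 7813 bases. Aspm, Kif20b and Cenpf, which were among the members with the largest differences, were thus the 3 least abundant per length. Within T1-non-binding cells, too, Cdc20 (19.8 and 40.6 FPKM) was more abundant per length than Aspm (0.612 and 1.06 FPKM).

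Between the 2 Ly6G-high populations, which differ in binding of T1, 0 members and 0 of all genes were called (0% in either direction) by edgeR, with a smallest adjusted p of 0.425 for Anln among members and of 0.385 over all genes. At an unadjusted p below 0.05, 1 member was lower, Anln, beside 742 genes higher and 881 lower among all, while DESeq2 and limma-voom called 0 members and DESeq2 called 173 genes. Most members were a little lower in T1-binding cells. Their median log2 difference was -0.22, beside -0.05 over all genes, and 39 of 45 were below 0, as were 55.4% of all genes. Scaling by library totals moved the median of all genes by 0.25 and put the members' median at -0.0073, so that it was lower relative to all genes by a like amount (-0.18 with TMM, -0.21 with library totals). The median rested on single libraries, at -0.04 without the T1-binding library of mouse 1 and also without the T1-non-binding library of mouse 2, at -0.415 without the T1-non-binding library of mouse 1 and at -0.49 without the T1-binding library of mouse 2.

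The 3 lowest differences in this comparison belonged to Anln, Cdc20 and Kif4. Anln, at 62.0 and 83.3 CPM in T1-binding against 94.0 and 115 in T1-non-binding cells, had a log2 difference of -0.53 ± 0.22 (edgeR adjusted p = 0.425). Cdc20, at 35.4 and 59.5 against 54.4 and 79.4 CPM, had -0.50 ± 0.29, and Kif4, at 8.97 and 13.8 against 12.7 and 19.2 CPM, had -0.49 ± 0.28. The T1-binding library was the lower one in each mouse for all 3 genes, but over both mice only Anln did not overlap. Highest were Incenp (0.24 ± 0.20), Ccnb2 (0.11 ± 0.25) and Ttk (0.08 ± 0.29). For 8 members both T1-binding libraries were below both others, namely Anln, Ccnb1, Cdc25c, Kif11, Kif2c, Prc1, Pttg1 and Tpx2, where 19.1% of all genes were, and for 1, Incenp, both were above, where 20.1% were.

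Within an animal the T1-binding library was the lower for 37 of 45 members in mouse 1 (median -0.32, all genes -0.08) and for 37 in mouse 2 (median -0.18, all genes 0.00), while with library totals the medians were 0.07 and -0.05. It was lower in both mice for 34 members, where 38.8% of all genes were, and higher in both for 5, where 31.9% were. With mouse as a block on the 4 Ly6G-high libraries, which leaves 1 residual degree of freedom, 12 members were called lower and 0 higher, beside 14.6% of 13419 genes lower and 13.6% higher. They were Anln (log2 -0.48, edgeR adjusted p = 0.000199), Cdc20 (-0.47, adjusted p = 0.000735), Foxm1 (-0.40, adjusted p = 0.00469), Racgap1, Ccnb1, Ube2c, Prc1, Ect2, Tpx2, Kif20a, Kif4 and Pttg1. The block over all 6 libraries called 0 members and 0 genes. A list of 10 neutrophil precursor genes summed to 224 and 353 CPM in T1-non-binding and to 55.0 and 83.3 in T1-binding cells. For 3 of the 10 genes both T1-binding libraries were below both others, where 19.1% of all genes were. For 1 gene both were above, where 20.1% of all genes were. Mpo, Elane, Ctsg and Ms4a3 of this list had too few reads to be tested. Of the 6 tested genes (Prtn3, Cebpe, Fcnb, Ltf, Camp and Ngp) 0 were called between the 2 populations. Neutrophil sums were 47927 and 30248 CPM in T1-non-binding against 18006 and 11691 in T1-binding cells, 0.380 times by the means, and monocyte and macrophage sums 3571 and 3368 against 6883 and 7591 CPM, 2.09 times, with 0 of 10 genes called in either list. Fibroblast sums were 539 and 824 against 428 and 747 CPM, and epithelial and CT26 sums 112 and 150 against 108 and 123 CPM. The part of these cells in the difference was not tested.

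**Figure D4:**
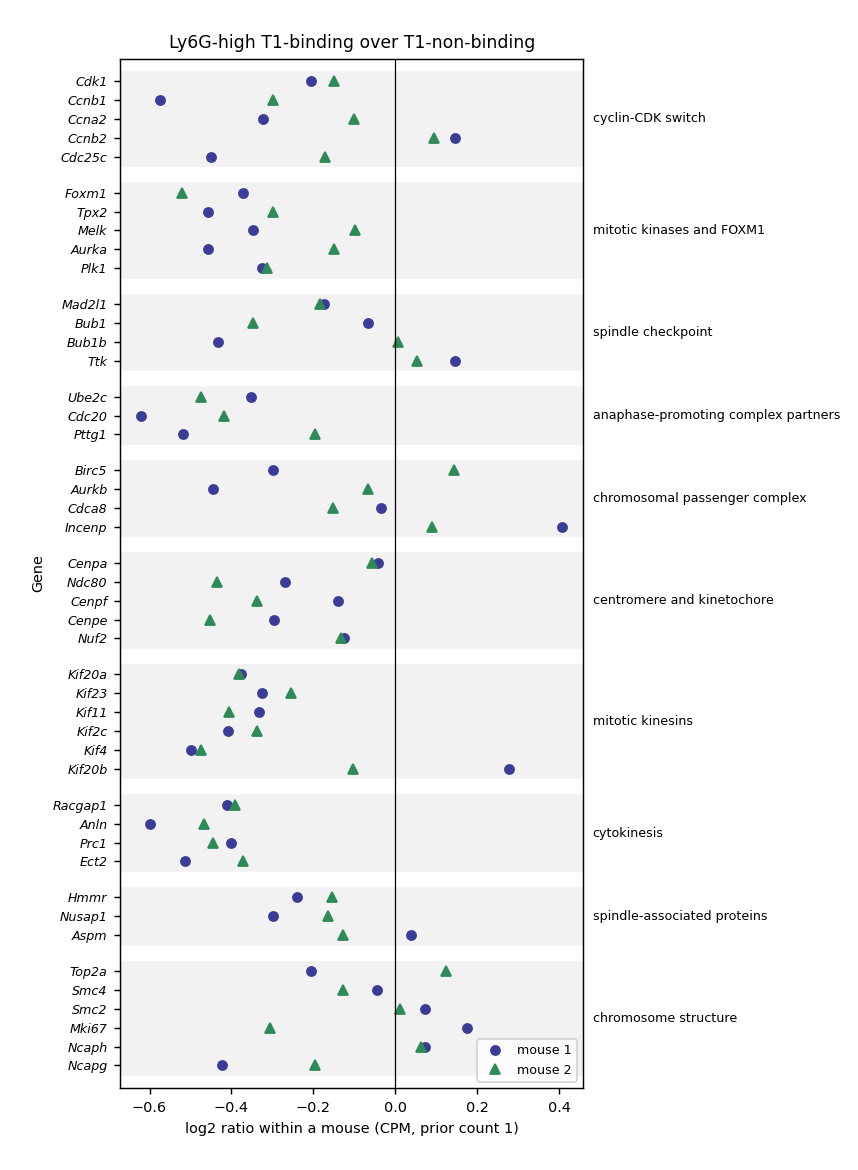
Log2 ratio of T1-binding to T1-non-binding Ly6G-high cells for each member within mouse 1 (circles) and mouse 2 (triangles), from TMM-scaled CPM with a prior count of 1. Of the 45 members, 34 lie left of 0 in both mice, and with library totals in place of TMM the median of mouse 1 turned to 0.07.

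The members moved together between animals too. In T1-non-binding cells 44 of 45 members were higher in mouse 2 than in mouse 1, with a median log2 difference of 0.44 and Pttg1 as the exception, where 44.4% of all genes were higher. In T1-binding cells 44 of 45 were, with a median of 0.49 and Mki67 as the exception, where 50.9% of all genes were. In Ly6G-low cells 14 of 45 members were higher in mouse 2, with a median of -0.07, where 51.5% of all genes were. With library totals the medians were 0.93, 0.72 and -0.08 and 45, 45 and 13 members were higher in mouse 2, where 73.9%, 69.3% and 49.8% of all genes were and the medians of all genes were 0.40, 0.24 and 0. With 1 animal on each side these are descriptions. Fibroblast sums stood in the same order, at 1.53 times in T1-non-binding and 1.74 times in T1-binding cells, and at 0.817 in Ly6G-low cells. Epithelial and CT26 sums stood at 1.34, 1.14 and 0.926 times, with the larger rise in T1-non-binding rather than T1-binding cells. Neutrophil precursor sums stood at 1.58 times in T1-non-binding and 1.52 times in T1-binding cells. In Ly6G-low cells they were at most 2.64 CPM, and mouse 2 stood at 0.273 of mouse 1. Pan-leukocyte sums in mouse 2 were 0.566 and 0.731 of those in mouse 1 in the Ly6G-high populations. Neutrophil sums there were 0.631 and 0.649, and monocyte and macrophage sums 0.943 and 1.10. The part of these cells in the difference between mice was not tested.

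Mitotic genes outside the 45 went the same way. Of 79 other genes of the kinetochore, spindle and cytokinesis, 60 were higher in Ly6G-low than in T1-binding cells and 0 lower (median log2 0.97), and 44 were higher and 1 lower than in T1-non-binding cells (median 0.85), beside the 18.8% and 16.1% of all genes that were higher. By read count the leading ones were Ncaph2, a subunit of condensin II, and Bub3, a checkpoint protein. Ncaph2 was at 227 and 217 CPM in Ly6G-low, 136 and 165 in T1-non-binding and 127 and 160.3 in T1-binding cells, and was higher only against the latter by the threshold (0.63 ± 0.21, edgeR adjusted p = 0.0472, and 0.56 ± 0.21, adjusted p = 0.0684). Bub3 was at 121 and 113, 89.6 and 97.1, and 87.1 and 107 CPM and was called in neither. The lower gene was Ccnf, cyclin F, a ubiquitin ligase subunit of G2 phase. Ccnf was at 17.0 and 13.8 CPM in Ly6G-low, 143 and 48.2 in T1-non-binding and 51.6 and 21.4 in T1-binding cells. Its Ly6G-low libraries were the lowest of the 6, and it fell by 2.64 ± 0.59 on the log2 scale against T1-non-binding cells (adjusted p = 0.016).

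DNA replication genes, which act in S phase, were higher in 27 of 38 cases against T1-binding (median 0.95) and in 18 of 38 against T1-non-binding cells (median 0.75), with 0 lower in either. Of all genes 18.8% and 16.1% were higher in these comparisons, with medians of 0.03 and 0.09. Rrm1, the large subunit of ribonucleotide reductase, was at 254 and 263 CPM in Ly6G-low, 123 and 176 in T1-non-binding and 111 and 149 in T1-binding cells, with log2 differences of 0.99 ± 0.25 and 0.79 ± 0.25 from T1-binding and T1-non-binding cells (edgeR adjusted p = 0.0202 and 0.0446). Pcna, the sliding clamp of DNA polymerases, was at 255 and 243, 245 and 211, and 193 and 176 CPM, so that its libraries overlapped between Ly6G-low and T1-non-binding cells. It was called in neither comparison (0.44, adjusted p = 0.109, and 0.13, adjusted p = 0.607).

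Core subunits of the anaphase-promoting complex, which cells keep through the cycle, and its co-activator Fzr1 had medians nearer to that of all genes. Of these 14 genes, 3 were higher against T1-binding (median 0.26, all genes 0.03) and 4 against T1-non-binding cells (median 0.31, all genes 0.09). None was lower, and 18.8% and 16.1% of all genes were higher. Both Ly6G-low libraries lay above both T1-binding libraries for 10 genes and above both T1-non-binding libraries for 11. The shares of all genes that did so were 41.6% and 43.6%. Anapc5, one of the leading pair by read count, was at 261 and 249 CPM in Ly6G-low, 168 and 195 in T1-non-binding and 193 and 215 in T1-binding cells, and was called in neither comparison. Anapc1, the other, was at 134 and 157, 75.7 and 86.6, and 92.8 and 95.7 CPM in that order and was called in both (0.63 ± 0.18, edgeR adjusted p = 0.0284, and 0.84 ± 0.18, adjusted p = 0.0132). Of 22 regulators, drawn from the DREAM and MYBL2 complexes, the RB and E2F families and NF-Y, 9 were higher and 2 lower than in T1-binding cells (median 0.46) and 6 were higher and 1 lower than in T1-non-binding cells (median 0.44). The shares of all genes that were lower were 24.3% and 23.8%. Mybl2, the activator of late cell cycle genes, and Lin9, its partner, were among the higher ones in both, with log2 differences of 0.95 and 0.74 from T1-binding cells. Leading by read count was Rbbp4, a histone-binding subunit, at 291 and 258 CPM in Ly6G-low, 183 and 207 in T1-non-binding and 170 and 194 in T1-binding cells (edgeR adjusted p = 0.0496 against the last). Tfdp1, the partner of E2F proteins, was at 87.7 and 87.9, 55.4 and 66.5, and 54.3 and 69.7 CPM (adjusted p = 0.0693) and was called in neither comparison. The lower ones against T1-binding cells were Rb1 and Lin54. Rb1, the retinoblastoma protein, was at 29.2 and 40.4 CPM in Ly6G-low, 53.5 and 39.1 in T1-non-binding and 70.6 and 53.9 in T1-binding cells (adjusted p = 0.034). Lin54, which contacts the homology region, was at 26.7 and 36.1, 53.2 and 39.6, and 71.4 and 52.0 CPM (adjusted p = 0.0213). Nfya, a subunit of NF-Y, was the lower one against T1-non-binding cells, at 5.38 and 6.85, 16.1 and 10.8, and 8.38 and 9.64 CPM (adjusted p = 0.0176).

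Inhibitors of cyclin-dependent kinases and growth arrest genes went the opposite way. Of 15 genes 14 were tested (Cdkn2a was at 0 in 5 of 6 libraries), and 8 were lower and 1 higher than in T1-binding cells (median -1.86), and 10 were lower and 0 higher than in T1-non-binding cells (median -2.46). Of all genes 24.3% and 23.8% were lower and 18.8% and 16.1% higher in these comparisons, with medians of 0.03 and 0.09. Btg1, an antiproliferative factor abundant in resting leukocytes, was at 437 and 399 CPM in Ly6G-low, 5806 and 3313 in T1-non-binding and 3307 and 1921 in T1-binding cells. Cdkn1a, the inhibitor p21, was at 397 and 395, 3191 and 1627, and 1790 and 1275 CPM. Both were lowest in the Ly6G-low libraries by a wide margin. Btg1 fell by 2.64 ± 0.44 and 3.45 ± 0.46 on the log2 scale against T1-binding and T1-non-binding cells (edgeR adjusted p = 0.0055 and 0.00269), and Cdkn1a by 1.95 ± 0.40 and 2.61 ± 0.41 (adjusted p = 0.0104 and 0.00499). The higher gene was Trp53, which encodes p53, at 139 and 128 CPM in Ly6G-low, 73.5 and 100.6 in T1-non-binding and 73.2 and 91.5 in T1-binding cells (0.70 ± 0.22, adjusted p = 0.039). Pan-leukocyte sums moved with these genes, and that part was not tested.

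**Figure D5:**
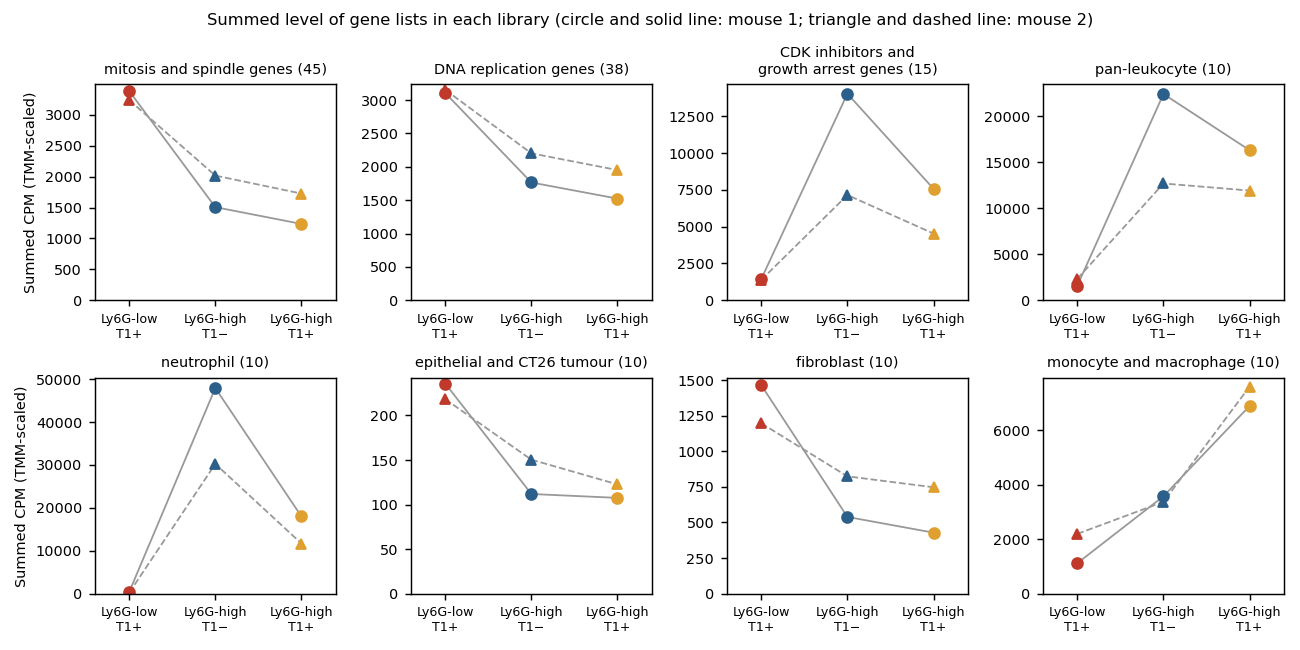
Summed TMM-scaled CPM of 8 gene lists in the 3 populations, with circles and solid lines for mouse 1 and triangles and dashed lines for mouse 2. The mitotic, replication, fibroblast and epithelial sums are highest in Ly6G-low cells, where the pan-leukocyte, neutrophil and growth arrest sums are lowest.

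Several members share genomic bases with a neighbour, and whether the counting used strand is not given, so that their reads cannot be fully told apart from the neighbour's. Kif4 overlaps Pdzd11 by 832 bases on the opposite strand, and in the Ly6G-low library of mouse 1 Pdzd11 had 2464 counts against 957 for Kif4. Cdc20 overlaps Elovl1 by 53 bases, with 3534 counts for Elovl1 and 4563 for Cdc20 there. In every Ly6G-high library Elovl1 had more counts than Cdc20, with 3669 against 845 in the T1-binding library of mouse 1. For Ccna2 with Exosc9, Kif20a with Cdc23 and Nusap1 with Oip5 the neighbour had fewer counts than the member in every library. Lcorl had fewer counts than Ncapg in the Ly6G-low library of mouse 1 (374 against 1358). It had more in the T1-binding library of mouse 1 (465 against 363). Prc1 spans 21810 bases shared with Rccd1, which had 87 counts against 3920 in the Ly6G-low library of mouse 1. The pseudogenes Ccnb2-ps and Kif4-ps held at most 2 counts in any library.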

How the data were processed

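RNA was sequenced from 3 populations sorted from the tumours of 2 mice, and libraries were grouped by their titles and paired by the mouse in the source labels. The read counts are whole, unnormalised numbers per gene as deposited by the authors. The FPKM values were deposited too, and dividing counts by them returned 1 length per gene whatever the library (deviating by at most 9.3e-12 of it over 14684 genes). Per the submitters' processing notes TopHat, STAR 2.5, HTSeq 0.6.1 and build mm10 were used, with no role for each, and strand is not given in the sources used here.

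Counts were filtered with filterByExpr, scaled by TMM and tested with edgeR 4.0.16 (R 4.3.3; quasi-likelihood F test, robust) over the 6 libraries together, with population as the sole factor and 3 residual degrees of freedom. P-values were adjusted by Benjamini-Hochberg over 13883 genes, with a threshold of 0.05. Fold changes are those of the model with its standard error, and CPM are TMM-scaled. Ratios within a mouse used a prior count of 1. Reads carried no molecular identifiers, so the limit of 3 counts covers counting error only.

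The pairing was checked by correlating, across genes, the deviations of libraries of one mouse from their population means. The correlation was 0.478 for the Ly6G-high pair, -0.03 for Ly6G-low with T1-non-binding and -0.0029 for Ly6G-low with T1-binding libraries. The mouse block over 6 libraries nonetheless fits the same mouse difference in every population, so calls gained with it depend on that assumption. Alternatives were a block for mouse, fits of only the populations compared, RLE and upper-quartile factors, library totals, DESeq2 1.42.0, limma-voom (3.58.1), other filters, a 2-fold threshold, other prior counts and each library left out.

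Values in every library are given for the 2 most abundant members of each role group, the 3 largest and 3 smallest differences of each comparison and the members not called against T1-binding cells, and from other lists for the 2 most abundant genes and those called against the majority. Mybl2 and Lin9 were named after their values were seen. Members and lists were chosen with earlier results of these data known. Positions are those of GENCODE M21, which holds 34490 of the gene IDs and lacks 785.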

Additional observations from a re-analysis of the deposited data

How the results depend on the processing

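Every member had at least 80 counts in each library, and differences between the Ly6G-high populations as small as those of the members were not resolved by the test over 6 libraries. Each member lay above 0 in both comparisons of Ly6G-low cells under every alternative run.

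Members called against T1-binding cells numbered 3 in a test against a 2-fold change and 17 to 44 with a library left out. Against T1-non-binding cells they numbered 0 and 3 to 43, and 28 with RLE factors. Fits without a library leave an arm with 1 library, which is assumed to vary like the others. Between Ly6G-high populations the mouse block on 4 libraries called 12 members, against 0 in every other alternative. The block changed no call besides those given in the report and those of Kif23 (adjusted p = 0.0595) and Nusap1 (adjusted p = 0.0517), which it lost on the 4 libraries of the T1-non-binding comparison.

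Library totals moved the median of all genes by 0.58 and 0.83 in the Ly6G-low comparisons against T1-binding and T1-non-binding cells and by 0.25 between Ly6G-high populations. Member medians became 1.69, 1.69 and -0.0073, within mice 2.13 and 1.38, 2.27 and 1.28, and 0.0713 and -0.0521 (mouse 1 and mouse 2), and the mean sum in Ly6G-low cells 4606 CPM. Relative to all genes the medians moved from 1.10, 0.83 and -0.18 to 1.08, 0.78 and -0.21. Without a library the medians ran from 0.90 to 1.31, from 0.68 to 1.13 and from -0.488 to -0.0368. Between Ly6G-high populations Ccnb2 and Ttk turned to -0.13 and -0.21 without the T1-non-binding library of mouse 1 and to -0.11 and -0.20 without the T1-binding library of mouse 2, and ran from -0.13 to 0.42 and from -0.21 to 0.47 over the libraries left out, and the cause was not tested.

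All genes called against T1-binding cells numbered 5971, of which 2604 were higher and 3367 lower. They split into 3588 and 3096 with upper-quartile factors and 5208 and 2235 with library totals. Against T1-non-binding cells 5528 split into 2230 and 3298, and into 3786 and 3002 or 7262 and 1883 with those scalings. A 2-fold threshold left 1524 and 1498 genes, leaving out a library 1972 to 6731 and 1527 to 6282. Between Ly6G-high populations 0 genes were called, against 3778 with the block on 4 libraries, 173 with DESeq2 and 71 without a filter.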
